A study of Xenopus tropicalis with 3 samples.

Results

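The Rab GTPases were the genes whose name in the deposited table starts with rab and a digit, leaving out names that continue with fip, gap, gef or if, such as rab11fip1 and rab3gap1. This rule found 53 of the 17647 genes, with 101 of the 35047 transcript rows. Of the 53 genes, 51 are named as small GTPases, while rab3ip (Rabin8) and rab3il1 carry the prefix but encode exchange factors that act on Rab proteins, so they are given apart. The study measured RNA in animal caps, the roof of the blastocoel that is dissected by hand and forms epidermis, of Xenopus tropicalis, labelled as prospective epidermis. The stages were NF10.5, a gastrula, then NF16, a neurula, and NF24, a tailbud embryo. NF numbers are the stages of the standard Xenopus normal table. No treatment, mutation or transgene is named for any stage, and age is the only difference between stages that the sample labels give. Other differences, such as batch or tissue make-up, cannot be told apart from stage. Each stage has 3 biological replicates per the labels, and the table gives 1 value per stage, the authors' mean in FPKM (fragments per kilobase of transcript, scaled to sequencing depth). No error between replicates can be given for any value here, and no difference between stages could be tested.

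Rab proteins are small GTPases that mark the membranes of the cell. In the GTP-bound form each recruits effectors, such as tethers, motors and adaptors, that move a vesicle and dock it at its target membrane, and in the GDP-bound form it is carried through the cytosol by GDI. Exchange factors (GEFs) switch a Rab on and GTPase-activating proteins (GAPs) switch it off. The epidermis of the Xenopus tadpole is a mucociliary epithelium, in which goblet cells and small secretory cells release granules and multiciliated cells carry many cilia, processes in which Rab-controlled traffic is known to act in other systems.

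A gene was compared if it reached 1 FPKM at 1 stage or more, and it is called higher or lower if log2(FPKM + 1) differed by at least 1, a 2-fold ratio after the addition of 1. This scale understates the change of genes with low values. Of the 53 Rab genes, 48 were compared and 5 (rab6b, rab11b.2, rab26, rab38 and rab44) stayed below 1 FPKM at all stages. Among the compared GTPases, 7 were below 1 FPKM at NF10.5 and entered the comparison only through a later, higher value. The total FPKM of all genes was 578836 at the gastrula, 531531 at the neurula and 505996 at the tailbud stage, and the sequencing depth is unknown. The epidermal markers, krt5.7, cdh1 and tp63 among them, summed to 2498, 36302 and 35726 FPKM in that order, and all 10 were above 1 FPKM at every stage. The summed level of other markers moved with stage too. It went from 94.1 to 3040 and 2199.8 FPKM for 9 multiciliated cell genes, from 81.98 to 999 and 1083 for 8 ionocyte genes, from 4.19 to 508 and 535 for 7 small secretory cell genes and from 242 to 2282 and 3618 for 8 goblet cell genes, of which otogl had at most 0.0267 FPKM. Most of the goblet sum at NF10.5 was xbp1, which went the other way, with 227, 143 and 101 FPKM. Of the 7 compared goblet genes 5 were called higher at NF16 and 0 lower. Mesoderm and muscle markers (6 genes) went from 34.1 to 249 and 327 FPKM, neural markers (8 genes) from 226 to 69.9 and 64.7, endoderm markers (7 genes) from 102 to 12.7 and 12.4, and myeloid markers (5 genes) from 11.3 to 3.71 and 8.98, with lyz listed at 0 at NF10.5. At NF10.5 t made up 30.1 FPKM of the mesoderm and muscle sum and sox2 199 FPKM of the neural sum. Both had lower values later, 24.04 and 5.89 FPKM for t and 37.3 and 22.1 FPKM for sox2. At NF16, 4 of the 6 mesoderm and muscle markers were called higher and 0 lower. Of the 8 neural markers 4 were called higher and 2 lower. The part of these cell types in the Rab values was not tested, and in bulk tissue more cells of a type and more RNA per cell cannot be told apart.

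The Rab transcript pool grew between stages and changed its leading members. Sums, ranks and shares cover the 51 GTPase genes found by the rule, and other Rab genes were not analysed here. Summed over these 51, FPKM was 1196 at the gastrula, 1774 at the neurula and 2268 at the tailbud stage, or 0.207%, 0.334% and 0.448% of the FPKM of all genes. At NF10.5 the highest members were rab11b.1 (146 FPKM), rab7a (106), rab35 (105), rab2b (93.8) and rab5a (86.01), which serve recycling, lysosomal, early secretory and early endosomal traffic. The rab35 value joins loci given apart below. The transcript now named rab35 had 60.7 FPKM at NF10.5, beside 61.3 for rab33b. At NF16 and NF24 the order was led by the same 5 genes, rab25, rab27a, rab11a, rab3d and rab1a, the first of which had been 39th of 51 at NF10.5. The first 4 of these, picked here after their values were seen, made up 3.01% of the summed Rab FPKM at the gastrula, 46.8% at the neurula and 48.7% at the tailbud stage. The other 47 GTPase genes together had 1160 FPKM at the gastrula, 944 at the neurula and 1164 at the tailbud stage. For those 47 the direction of the first step depends on scaling, since their sum was higher at NF16 than at NF10.5 under median-of-ratios scaling (881 and 1116) and quantile normalization (971 and 1055). The sum over all 51 was higher at NF16 than at NF10.5 as deposited (1.48-fold) and under TPM (1.62-fold), median-of-ratios scaling (2.31-fold) and quantile normalization (1.85-fold).

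**Figure D1:**
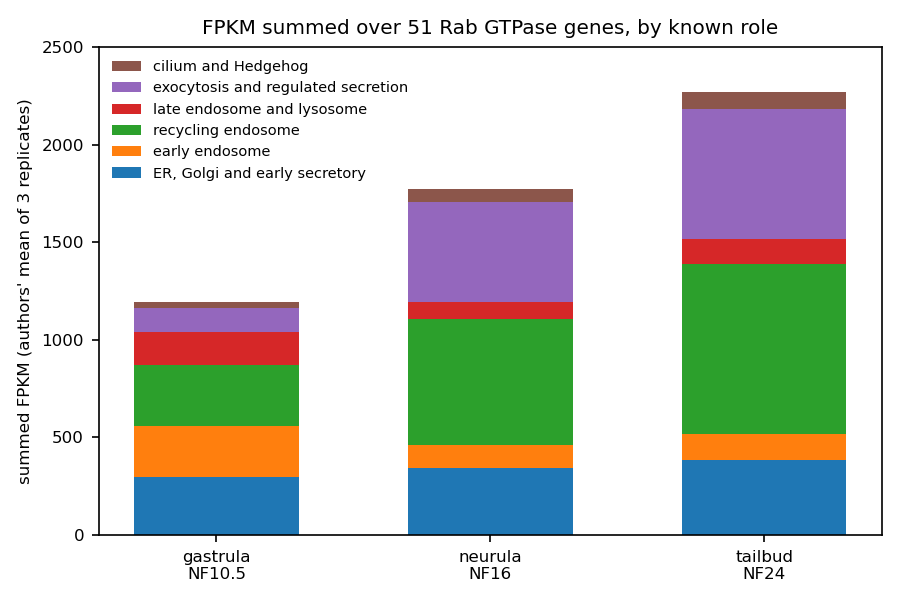
Summed FPKM of the 51 Rab GTPase genes at each stage (bars, authors' means of 3 replicates), split by the known role of each gene. The bar height goes from 1196 to 1774 and 2268 FPKM, with the recycling endosome and exocytosis segments growing and the early endosome segment falling from 265 to 118 and 135 FPKM.

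From gastrula to neurula, Rab genes went both ways by large amounts. Of the 48 compared, 24 were called at NF16, 11 higher and 13 lower, against 59.9% called, 20.9% higher and 39.0% lower over the 11771 genes compared. The median log2 difference of the 48 was -0.11, beside -0.57 over all compared genes, and the medians with no filter on low values were -0.03 for all 53 and -0.02 for all 17647 genes. The split of calls depends on scaling, with 16 Rab genes higher and 10 lower when stages were scaled by median-of-ratios factors, which moved the median of all genes from -0.57 to -0.03, 15 and 12 under quantile normalization (median -0.24) and 12 and 14 with TPM. Of 11771 compared genes, 3279 were higher and 2854 lower with median-of-ratios factors, 2760 and 3494 under quantile normalization, and 2829 and 4457 with TPM. From neurula to tailbud 3 of the 48 were called, all higher, against 11.7% called, 6.91% higher and 4.84% lower of all compared genes, with a median of 0.36 beside 0.12. TPM gave 7 higher and 1 lower in this step, and median-of-ratios scaling and quantile normalization each gave 3 and 1. Over all compared genes these counts were 1227 and 626, 633 and 785, and 642 and 790, in that order of scalings. Across the whole interval, NF24 against NF10.5, 27 were called, 16 higher and 11 lower, against 62.2%, 25.4% and 36.9% of all compared genes, with a median of 0.31 beside -0.44. This last comparison shares its samples with both steps and is not separate evidence.

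**Figure D2:**
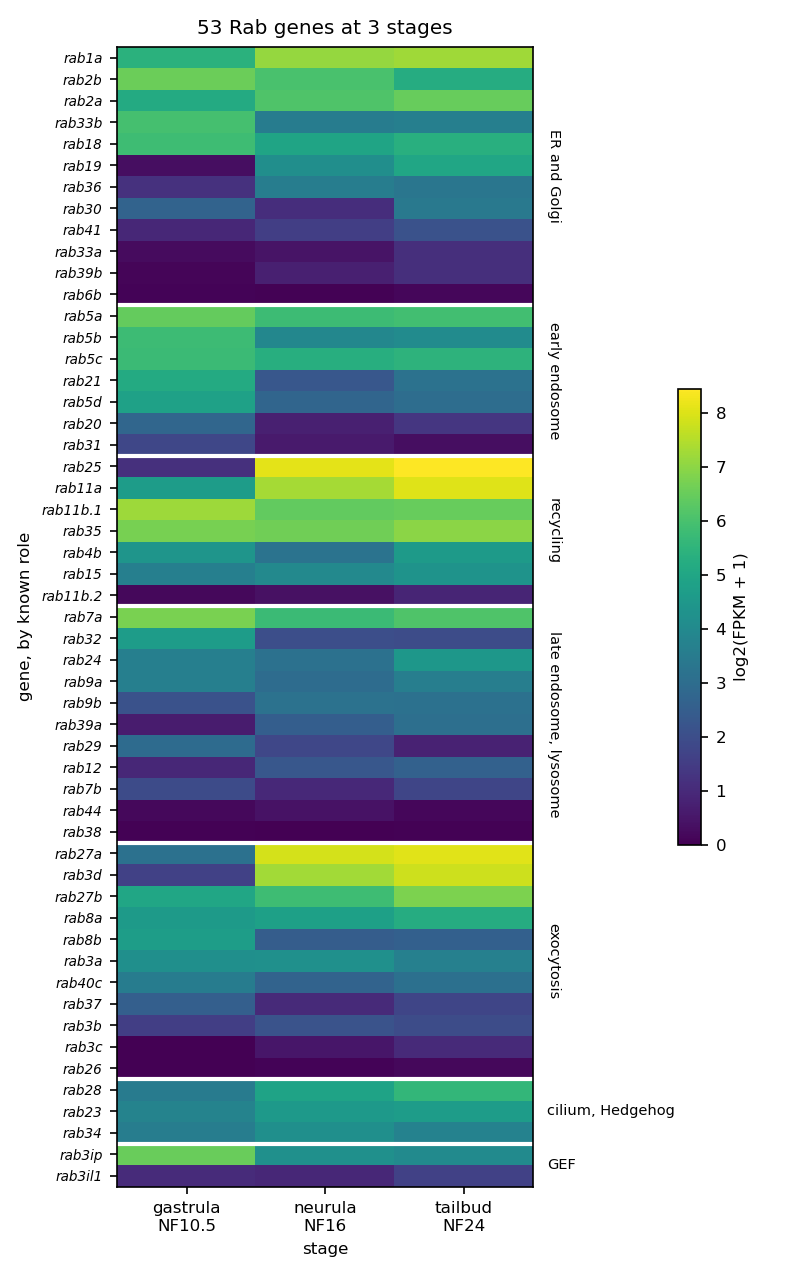
Values of all 53 Rab genes (rows, grouped by known role) at the 3 stages (columns), coloured by log2(FPKM + 1) of the authors' means. The brightest cells move from rab11b.1, rab7a and rab35 at NF10.5 to rab25, rab27a, rab11a and rab3d at NF16 and NF24. The rab35 row joins loci (see text).

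Among Rabs of exocytosis and regulated secretion, the granule genes rab3d and rab27a stood out. The gene rab3d, known from secretory granules of exocrine glands in mammals, had 2.10 FPKM at the gastrula, 155 at the neurula and 225 at the tailbud stage. Its value was low at the gastrula only, and its NF16 value was 74.2-fold that at NF10.5 (log2(FPKM + 1) difference 5.66). The gene rab27a, which docks granules at the plasma membrane and is mutated in human Griscelli syndrome, had 7.94, 238 and 267 FPKM, a 30.02-fold ratio in the first step (log2 difference 4.74). Its paralogue rab27b had 30.7, 56.4 and 109 FPKM. Neither step of rab27b reached the size rule (log2 0.85 and 0.93), but the whole interval did (log2 1.79), and the first step passed under median-of-ratios scaling (1.47) and quantile normalization (1.37).

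The other granule Rabs had lower values than rab3d and rab27a at NF16 and NF24, but at NF10.5 rab3a had a higher value than either. The neuronal exocytosis gene rab3a had 17.7, 17.99 and 11.9 FPKM and was not called in any comparison. Values of rab3b (1.98, 3.47 and 2.87 FPKM), rab3c (0.00667, 0.43 and 1.03 FPKM) and rab37 (4.94, 0.993 and 2.39 FPKM) stayed below 5 FPKM, and rab26 had at most 0.123 FPKM. Here rab37 was called lower at NF16 and rab3c higher over the whole interval. For delivery to the surface and the cilium, rab8a had 23.2, 26.8 and 36.6 FPKM and was not called, while its paralogue rab8b had 24.8, 4.61 and 5.06 FPKM, lower by a log2 of -2.20 in the first step and flat in the second (0.11). The SOCS box gene rab40c had 10.8, 5.43 and 7.76 FPKM and was not called.

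Recycling endosome Rabs made up the largest share of the summed FPKM of the 6 role groups at each stage, 25.9% at the gastrula, 36.2% at the neurula and 38.4% at the tailbud stage. At the gastrula their sum was 310 FPKM, beside 295 for the endoplasmic reticulum and Golgi group. It includes the rab35 value of 105 FPKM, which joins loci, with 60.7 FPKM for the transcript now named rab35. The lead at the gastrula therefore depends on the joined value. The gene rab25, the epithelial member of the Rab11 subfamily, had 1.25 FPKM at the gastrula, 276 at the neurula and 349.8 at the tailbud stage. It went from rank 9738 of all genes to rank 328 and then 244, and its log2 difference of 6.94 in the first step was the largest of the Rab genes. The gene rab11a, which drives apical recycling, stood at 24.7, 159.9 and 263 FPKM, with log2 differences of 2.65 and 0.71 in the steps. In contrast, rab11b.1 was the highest Rab gene at NF10.5 with 146 FPKM and had 85.7 and 89.7 FPKM later, which did not reach the size rule (log2 -0.76 and 0.07). The second rab11b copy, rab11b.2, was listed at 0.123, 0.31 and 0.843 FPKM.

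The fast recycling gene rab4b had 20.4, 8.28 and 23.2 FPKM, lowest at the neurula. Its log2 differences were -1.21 and 1.38, and the first was -0.62 under median-of-ratios scaling and -0.61 under quantile normalization, so the first was not called there, whereas the second was called under every scaling. The gene rab15 had 11.5, 14.7 and 19.2 FPKM and was not called. The endocytic recycling and cytokinesis gene rab35 had 105, 97.4 and 125 FPKM and was not called either. The rows listed as rab35 join loci that the current RefSeq gene table (assembly UCB_Xtro_10.0) names apart. The transcript now under rab35 had 60.7, 60.2 and 75.6 FPKM, the 3 transcripts now under rab35l summed to 41.4, 37.2 and 48.5 FPKM, and the remaining transcript, not found in that table, had 3.24, 0 and 1.29 FPKM.

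Rabs of the endoplasmic reticulum (ER) and Golgi held members that were higher and members that were lower. The gene rab1a, needed for traffic from the ER to the Golgi, had 41.0 FPKM at the gastrula, 138 at the neurula and 151 at the tailbud stage, a log2 difference of 1.73 and then 0.12. Its step lay between gastrula and neurula. The gene rab19, a Golgi-located Rab with a role in apical cortical clearing in mammalian ciliated cells, had 0.24, 16.9 and 31.3 FPKM (log2 3.85 and 0.85), and rab36 had 1.297, 10.9 and 8.92 FPKM (log2 2.37 and -0.26). On the other side rab33b, which acts at the Golgi and in autophagy, had 61.3, 10.7 and 11.5 FPKM, a log2 difference of -2.42 in the first step and 0.10 in the second. The Golgi gene rab30 was lowest at NF16, with 5.43, 1.17 and 9.63 FPKM. Its log2 differences of -1.56 and 2.29 include the largest difference of any Rab gene in the second step, and the first was not called with a pseudocount of 5 (-0.76).

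The ER and lipid droplet gene rab18 had 56.4, 29.7 and 39.7 FPKM and was not called (log2 -0.90 and 0.41). The paralogues rab2a and rab2b, both of the early secretory pathway, had opposite directions as deposited. While rab2a had 34.8, 69.2 and 89.6 FPKM, rab2b had 93.8, 63.9 and 36.8 FPKM. Neither was called in a single step as deposited, although rab2a had a log2 difference of 0.97 in the first. That step of rab2a was called higher with TPM (1.10), median-of-ratios scaling (1.59) and quantile normalization (1.46), while that of rab2b was -0.55 as deposited and 0.08 with median-of-ratios scaling. Over the whole interval the log2 differences were 1.34 for rab2a and -1.33 for rab2b, the latter -0.84 under median-of-ratios scaling and -0.90 under quantile normalization. The remaining members rab33a, rab39b and rab41 had at most 3.39 FPKM at any stage, of which rab39b and rab41 were called higher over the whole interval.

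**Figure D3:**
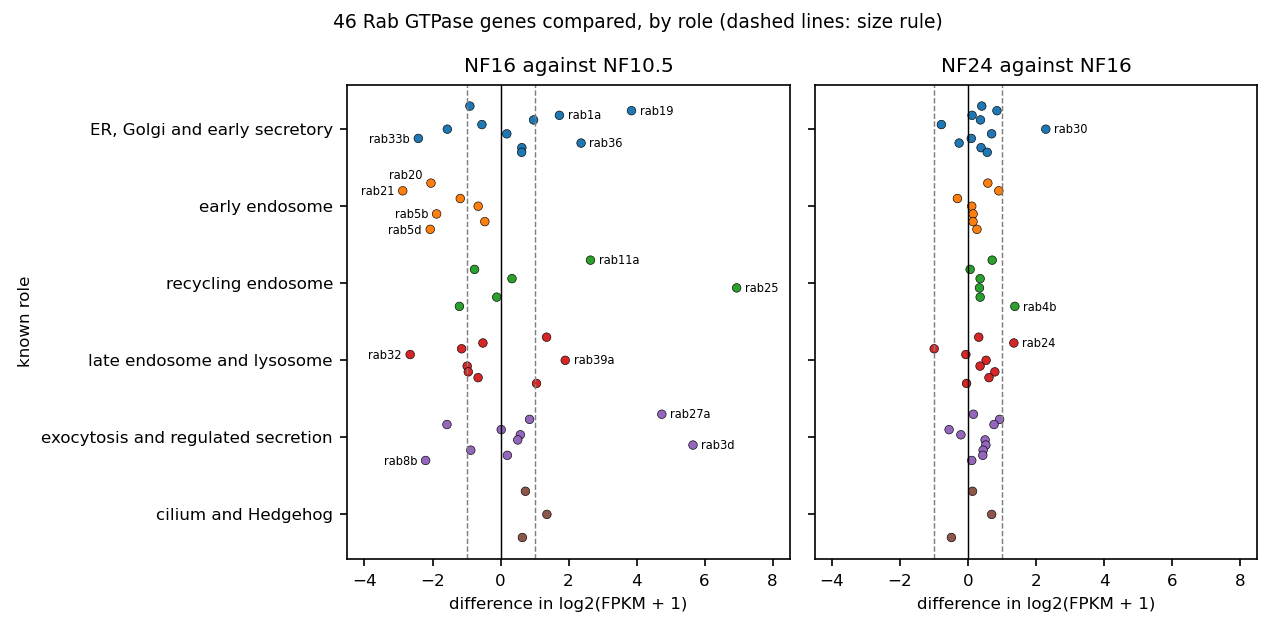
Difference in log2(FPKM + 1) of the 46 compared Rab GTPase genes (points), by known role, for NF16 against NF10.5 (left) and NF24 against NF16 (right), with dashed lines at -1 and 1. On the left points run from -2.88 (rab21) to 6.94 (rab25), and on the right only rab30, rab4b and rab24 lie beyond the lines, with rab29 just inside the lower line.

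Early endosome Rabs were lower at NF16 in 5 of 7 cases and higher in 0, with a median log2 difference of -1.88, beside 39.0% lower, 20.9% higher and a median of -0.57 over all compared genes. Their share of the summed Rab FPKM was 22.1% at the gastrula, 6.65% at the neurula and 5.93% at the tailbud stage. Scaled by median-of-ratios factors, 4 were lower and 0 higher, and the median was -1.26, beside -0.03 for all genes. The integrin endocytosis gene rab21 had 34.6, 3.85 and 8.11 FPKM, the lowest log2 difference of all Rab genes in the first step at -2.88, and 0.91 in the second. Among the Rab5 paralogues, which fuse early endosomes, rab5b had 54.5, 14.1 and 15.8 FPKM (log2 -1.88 and 0.15) and rab5d had 27.3, 5.77 and 7.14 FPKM (log2 -2.07 and 0.27). The other members of that subfamily were not called. Here rab5a had 86.01, 54.2 and 58.7 FPKM and rab5c had 53.8, 38.8 and 43.2 FPKM. The gene rab20 had 5.93, 0.68 and 1.52 FPKM (log2 -2.05 and 0.58), and its first step was not called with a pseudocount of 5 (-0.94). The gene rab31 was called lower, with 2.46 FPKM at NF10.5 and 0.523 at NF16.

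Of the 9 compared late endosome and lysosome Rabs, 3 were higher and 2 lower at NF16 than at NF10.5, beside 20.9% higher and 39.0% lower over all compared genes. The gene rab7a, which drives fusion with lysosomes, was second among Rab genes at NF10.5, with 106, 53.1 and 68.2 FPKM, and its log2 difference of -0.98 lay just inside the size rule. The gene rab32, which acts on lysosome-related organelles such as pigment granules, had 24.6, 3.07 and 2.90 FPKM (log2 -2.66 and -0.06). Its relative rab38 was at most 0.0333 FPKM and listed at 0 at NF16. The gene rab29 was lower at each stage than at the one before, with 6.69, 2.48 and 0.75 FPKM. Its log2 differences were -1.14 and -0.99, and the first was -0.63 under median-of-ratios scaling, where the second was -1.13.

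The higher members had modest levels. The gene rab39a had 0.557, 4.82 and 7.43 FPKM (log2 1.90 in the first step), rab12, which sends transferrin receptor to degradation in mouse cells, had 0.93, 3.94 and 5.15 FPKM (1.35), and rab9b had 3.35, 8.06 and 7.82 FPKM (1.06). With a pseudocount of 5 these 3 were not called in that step. The autophagy gene rab24 had 11.6, 7.81 and 21.5 FPKM, with its change in the second step (log2 1.35). The other members, rab7b (2.79, 0.967 and 2.403 FPKM) and rab9a (11.6, 6.95 and 11.2 FPKM), were not called.

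The role group of cilia and Hedgehog signalling held 3 Rabs, all present. Other Rabs with a ciliary role, such as rab8a, rab8b and rab19, are given above in other groups. Of these, rab8b was called lower and rab19 higher at NF16, and rab8a was not called. The ciliary gene rab28 had 10.503, 28.6 and 47.04 FPKM, a log2 difference of 1.36 and then 0.70. The Hedgehog regulator rab23 had 12.9, 22.1 and 24.4 FPKM (log2 0.73 and 0.13), and the ciliogenesis gene rab34 had 10.9, 17.6 and 12.3 FPKM (log2 0.64 and -0.49). Neither rab23 nor rab34 was called as deposited. In the first step 1 of the 3 group members was called higher with TPM, and all 3 under median-of-ratios scaling and quantile normalization. Of all 11771 compared genes, 2466 were higher in that step as deposited and 2829 with TPM. Under median-of-ratios scaling 3279 were higher, and 2760 under quantile normalization. The exchange factor gene rab3ip, whose product activates Rab8 at the base of the cilium, went the other way, with 89.9, 17.98 and 15.6 FPKM (log2 -2.26 and -0.19). Its relative rab3il1 had 1.08, 0.923 and 2.07 FPKM.

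Within subfamilies the leading paralogue differed between gastrula and neurula in several cases. Shares of a subfamily are not affected by a scaling factor common to all genes of a stage. In the Rab3 subfamily rab3a made up 81.3% of the FPKM at NF10.5, while rab3d made up 87.7% at NF16 and 93.4% at NF24, as the sum went from 21.8 to 177 and 240.4 FPKM. In the Rab27 pair rab27b held 79.5% at NF10.5 and rab27a 80.9% at NF16 and 71.1% at NF24, with sums of 38.7, 295 and 375 FPKM. Among rab11a, rab11b.1, rab11b.2 and rab25, the share of rab11b.1 was 84.9% at the gastrula, 16.4% at the neurula and 12.8% at the tailbud stage, and rab25 held 0.728%, 52.9% and 49.8% in that order. These sums grew as well, from 172 to 522 and 703 FPKM.

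Other subfamilies had a flat or lower sum at NF16 as deposited, and several of them changed composition. Unlike the shares, these sums depend on scaling. The Rab2 pair summed to 129, 133 and 126 FPKM, within which rab2a held 27.1%, 52.0% and 70.9%. The Rab8 pair summed to 47.99, 31.4 and 41.7 FPKM, within which rab8a held 48.3%, 85.3% and 87.9%. In the Rab5 subfamily the sum was 222 FPKM at NF10.5 and 113 and 125 FPKM later, and rab5a led at each stage with 38.8%, 48.03% and 47.04%. The Rab9 pair changed leader and changed back, with rab9a at 77.5%, 46.3% and 58.9% of 14.9, 15.01 and 19.03 FPKM. The lead at NF16 was narrow, with 6.95 FPKM for rab9a and 8.06 for rab9b, and has no replicate error. In the Rab7 pair rab7a held 97.4%, 98.2% and 96.6%. How the authors' processing assigned reads that fit more than a single paralogue cannot be checked from FPKM.

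**Figure D4:**
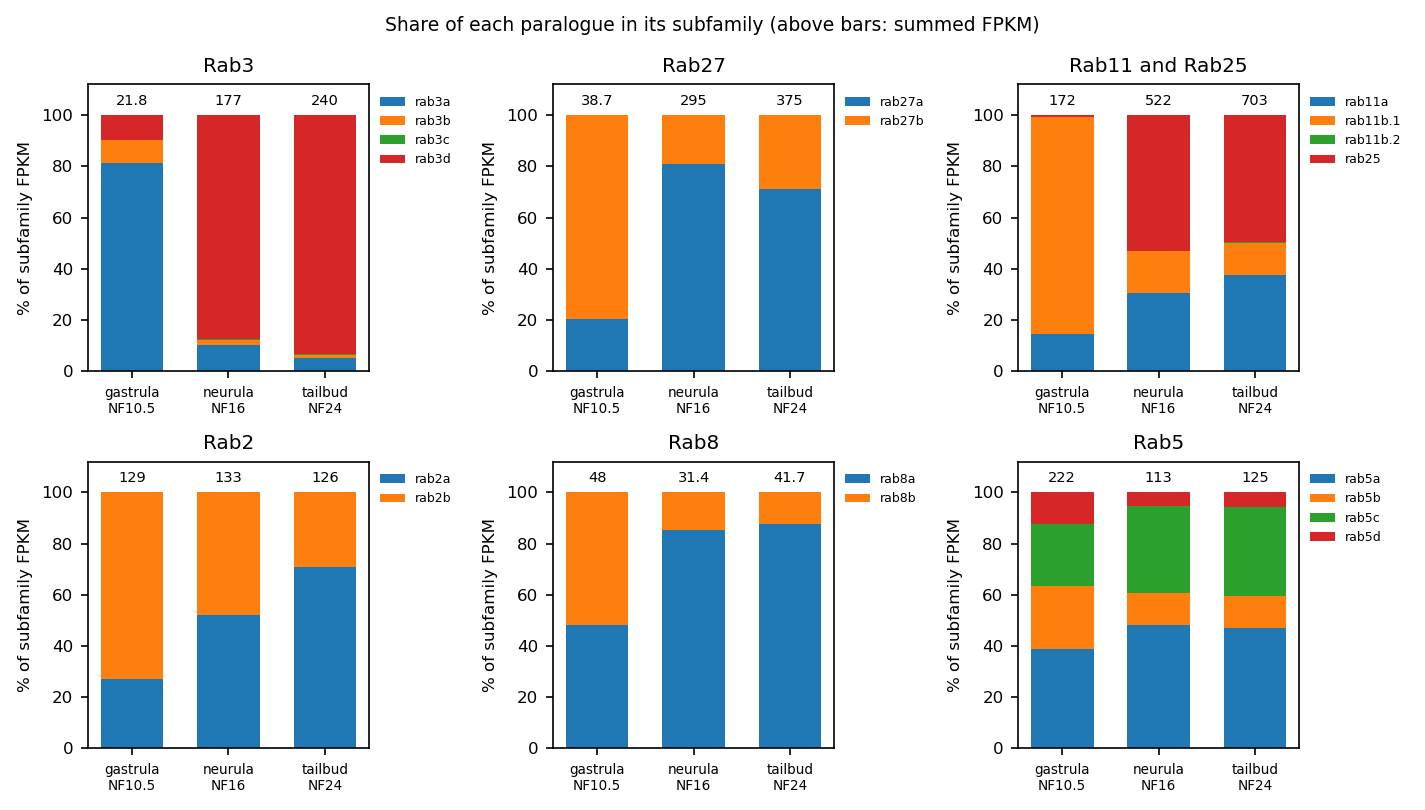
Share of each paralogue in the summed FPKM of its subfamily (stacked bars, percent) at the 3 stages, with the summed FPKM above each bar. The leading paralogue differs between NF10.5 and NF16 in Rab3 (rab3a, then rab3d), Rab27 (rab27b, then rab27a), Rab11 and Rab25 (rab11b.1, then rab25), Rab2 (rab2b, then rab2a) and Rab8 (rab8b, then rab8a) among the subfamilies plotted, whereas rab5a leads at each stage. The lead is narrow for rab8b at NF10.5 (51.7%) and for rab2a at NF16 (52.0%).

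The table lists 1 transcript for 30 Rab genes and 2 or more for 23, at most 7. Transcript shares were compared where a gene had at least 2 transcripts and at least 10 FPKM at both stages, and a switch is a change of leading transcript in which the new leader gains and the old leader loses at least 30 percentage points. Between NF10.5 and NF16, 1 of 6 such Rab genes switched, rab27b, against 5.19% of 2272 genes. At NF10.5 the transcript NM_001195546.1 had 30.4 FPKM and NM_001005681.2 had 0.317 FPKM. At NF16 these were 2.24 and 54.1 FPKM, and at NF24 1.09 and 107 FPKM. The share of NM_001005681.2 in rab27b was therefore 1.03% at the gastrula, 96.02% at the neurula and 98.995% at the tailbud. Measured on the transcript with the highest mean alone, the log2 difference of rab27b in the first step was 5.39, in place of 0.85 for the gene sum. That transcript was picked by its mean over the 3 stages, so its high later values set the choice. The other transcript went the opposite way, from 30.4 to 2.24 FPKM.

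Between NF16 and NF24, 0 of 9 Rab genes switched, against 0.295% of 2711 genes, and over the whole interval 1 of 9 did, again rab27b, against 6.63% of 2368 genes. A share moved by 30 points or more, with or without a change of leader, in 1, 0 and 1 of these Rab genes, against 9.86%, 1.14% and 12.4% of all genes in the order first step, second step and whole interval. In the first step the median of the largest share change per gene was 6.30 percentage points over the 6 Rab genes and 8.52 over all 2272. With the floor at 5 FPKM, 12 Rab genes were compared in the first step and 13 over the whole interval. Of these, rab27a and rab40c also had a share that moved by 30 points or more in the first step without a switch. Over the whole interval the same held for rab27a (37.4 points), rab40c (44.3 points) and rab30 (36.3 points). The share over all genes was not counted at this floor. In rab27a the transcript XM_012958884.2 held 37.99% of 7.94 FPKM at NF10.5 and 0.392% at NF16. At the same stages NM_001007969.1 held 35.4% and 52.5%, and XM_012958889.2 held 19.8% and 43.3%. The leading transcript thus differed, but at NF10.5 the first 2 of these were close, with 3.02 and 2.81 FPKM. At NF16 XM_012958884.2 had 0.933 FPKM. In rab40c XM_004917991.3, not found in the current RefSeq gene table, had 5.31 FPKM at NF10.5 and 0.383 at each later stage. The other transcript, XM_004917990.3, had 5.47, 5.04 and 7.38 FPKM. In the exchange factor gene rab3ip the leading transcript XM_012958764.1 held 71.96%, 68.5% and 45.7%, and XM_012958765.2 held 21.5%, 25.1% and 42.1%. In rab25 NM_001007902.1 held 82.9% at NF16 and 83.9% at NF24, and at NF10.5 the gene was below either floor.

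**Figure D5:**
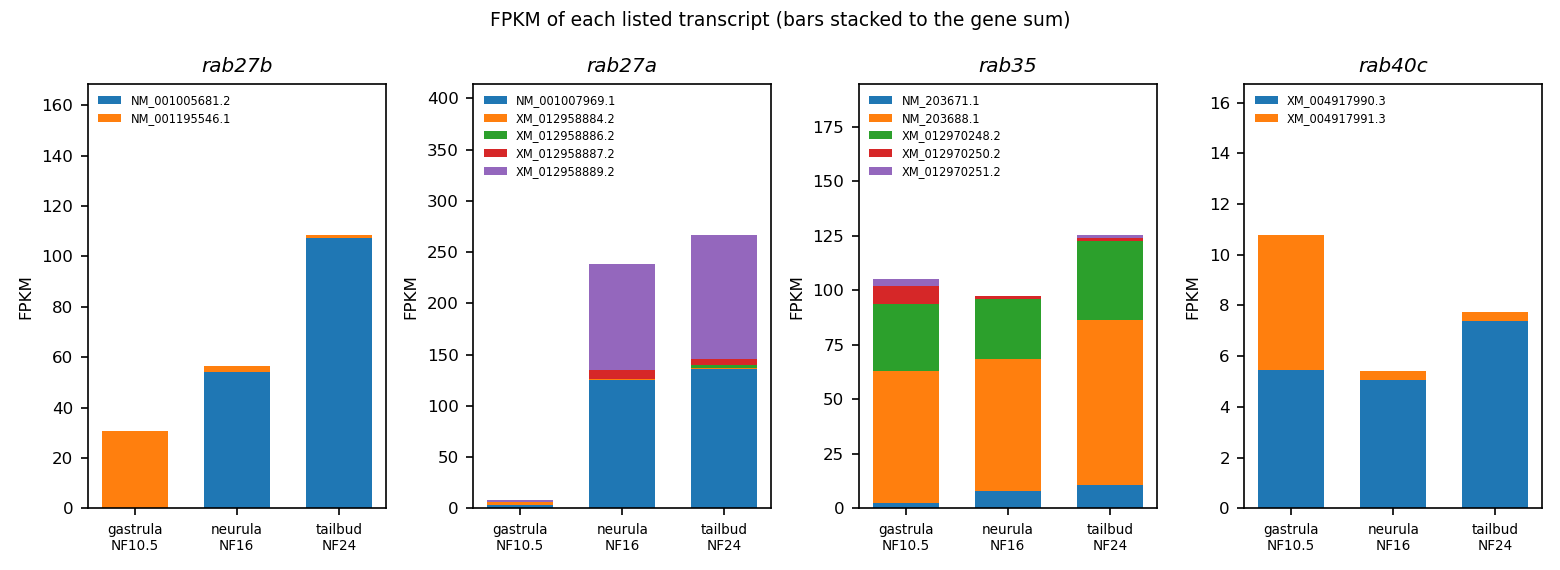
FPKM of each listed transcript of rab27b, rab27a, rab35 and rab40c at the 3 stages, stacked to the gene sum. In rab27b the bar is almost all NM_001195546.1 at NF10.5 (30.4 FPKM) and almost all NM_001005681.2 at NF16 (54.1 FPKM) and NF24 (107 FPKM).

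Genes that switch Rab proteins on or off were more often lower than higher at NF16 as deposited, as were all compared genes (39.0% lower, 20.9% higher). With median-of-ratios factors 3279 of the 11771 compared genes were higher and 2854 lower. Of 31 compared GEF genes, rab3ip included, 4 were higher and 17 lower (median -1.09), which became 7 and 12 with median-of-ratios factors (median -0.52). Among those with large differences were mon1a, part of the Rab7 exchange factor, with 21.3 and 1.51 FPKM, dennd3, whose product activates Rab12 in mammalian cells, with 4.58 and 36.5 FPKM, and hps1, part of the Rab32 and Rab38 exchange factor, with 18.4 and 2.71 FPKM at NF10.5 and NF16. Of 33 GAP genes 2 were higher and 12 lower (median -0.30), but with median-of-ratios factors 8 were higher and 10 lower and the median was 0.29. The GAP genes with the largest differences were all lower, tbc1d8 (22.8 and 1.36 FPKM), tbc1d4 (20.9 and 3.10 FPKM), tbc1d5 (13.2 and 1.94 FPKM) and tbc1d22a (25.4 and 4.91 FPKM). Of 5 compared genes of GDI, prenylation and chaperone function 2 were lower, chm and rabggtb, both at a log2 difference of -1.01, and 0 were called with TPM, median-of-ratios factors or quantile normalization. The abundant GDI gene gdi2 had 183, 175 and 151 FPKM.

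Among 34 compared effector genes, 9 were higher and 13 lower (median -0.22), or 10 and 8 with median-of-ratios factors (median 0.31). Over all compared genes 20.9% were higher and 39.0% lower, close to the 9 and 13 of 34 as deposited. With median-of-ratios factors 3279 of all 11771 compared genes were higher and 2854 lower. The 4 largest differences were those of sytl1, sytl5, myo5c and rab11fip5, and the other effectors named here were chosen after their values were seen. Of the synaptotagmin-like genes, whose products bind Rab27 on granules, sytl1 had 0.57, 141 and 183 FPKM, sytl2 had 22.7, 164 and 216 FPKM, and sytl5 had 0.247, 46.9 and 53.7 FPKM. Of the same family, sytl4 had 21.4, 18.6 and 35.95 FPKM and was not called, and sytl3 had at most 0.2 FPKM. Elsewhere in the effector list, rph3al had 13.6, 6.26 and 19.3 FPKM, called lower in the first step and higher in the second. In that list mlph had at most 1.08 FPKM, myrip at most 0.113 and unc13d at most 0.433. The class V myosins, motors for Rab11 and Rab27 cargo, were split. The epithelial forms myo5b (6.60, 39.01 and 32.5 FPKM) and myo5c (1.18, 25.1 and 47.1 FPKM) were higher at NF16 and myo5a (18.6, 4.37 and 2.29 FPKM) was lower. The Rab11 adaptor rab11fip5 had 17.6, 0.75 and 0.96 FPKM. The early endosome tether gene eea1, a Rab5 effector, had 19.7, 4.75 and 6.20 FPKM, and rufy1, which binds Rab4 and Rab14, had 46.1, 4.38 and 5.65 FPKM.

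HOPS and CORVET are complexes that tether endosomes and lysosomes for Rab5 and Rab7. Of 8 compared genes listed for them, 7 were lower and 0 higher at NF16 (median -1.84). With median-of-ratios factors 6 were lower and 0 higher (median -1.27). Of all 11771 compared genes 39.0% were lower as deposited, and 2854 were lower with median-of-ratios factors. Here vps11 had 50.97 and 7.63 FPKM and vps33a 14.7 and 3.20 FPKM. The counts and medians include vps33b (22.1 and 2.76 FPKM), a vps33a paralogue whose membership of these complexes is not established here. Of 8 compared exocyst genes, which tether secretory vesicles, 5 were lower and 0 higher (median -1.20), or 2 and 1 with median-of-ratios factors. The gene exoc5 had 69.8, 9.70 and 18.3 FPKM. Of 8 listed Rab-like GTPase genes, known from cilia and intraflagellar transport, 3 were found and compared. All 3 were higher at NF16 as deposited and under the 3 other scalings, beside 20.9% of all compared genes as deposited. The values were 30.9 and 87.1 FPKM for rabl2b, 36.5 and 74.8 for ift22 and 18.7 and 43.5 for ift27. As deposited ift22 (log2 1.02) and ift27 (1.17) lay near the size rule. In the second step 3 of 31 GEF, 4 of 33 GAP and 1 of 34 effector genes were higher and 0 lower, beside 6.91% higher and 4.84% lower over all compared genes. With quantile normalization 1 GEF, 3 GAP and 1 effector gene were higher and 2 effector genes lower. Of 8 exocyst genes 2 were higher in this step as deposited, exoc7 (5.13, 9.43 and 24.5 FPKM) and exoc8, and 0 lower. Of the 8 genes listed for HOPS and CORVET 1 was higher, vps18, and 0 lower. With quantile normalization 1 gene of each of these 2 lists was higher and 0 lower. As deposited rabl2b was lower (log2 -1.01), at 42.9 FPKM.

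The Arf and Arl genes, another small GTPase family, are given beside the Rab counts. Of 25 compared Arf and Arl genes 7 were higher and 7 lower at NF16 (median -0.03), or 10 and 4 with median-of-ratios factors. Of all 11771 compared genes 2466 were higher and 4586 lower, or 3279 and 2854 with median-of-ratios factors. In the second step 2 Arf and Arl genes were higher and 0 lower. Whether the Rab genes differ from this family was not tested.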

How the data were processed

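Total RNA of hand-dissected animal caps was depleted of ribosomal RNA and made into directional paired-end libraries, per the labels' protocols. STAR 2.4.2a and RSEM 1.3.0 are named, without settings, in the submitters' processing notes, and the genome build is not given in the sources used here. The deposited FPKM table has 1 column per stage. All 83506 values above 0 lay on a grid whose spacing is 0.01/3 (tolerance 0.01 of the spacing), so each is taken as the authors' mean of 3 replicates.

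FPKM was summed over the transcripts of a gene with pandas 2.3.3, and all 17647 genes were processed together. The planned limma test needs replicate columns, so the planned size rule took its place. Named genes are members called in any comparison with at least 5 FPKM and those at 100 FPKM or more. Members with a transcript share that moved by 30 points or more are named too. In each partner list, up to 4 genes are named from the largest called differences at 10 FPKM or more. Others are summarised or were chosen after their values were seen. Members, role groups and lists were chosen with earlier results of these data known, and the subfamilies and the roles of rab12, rab39a, rab5d, the rab11b copies, rab3ip and rab3il1 were set after the table was seen. Median-of-ratios factors used genes above 0 at all stages and at 1 FPKM or more at 1 stage. The steps were tested on simulated data. All 53 symbols matched the RefSeq gene table, and 84 of the 101 Rab transcripts were found in it, 3 of them under another symbol. No sequences were used here. Of the partner and comparison lists, 1 GEF gene and 1 comparison family are not reported here.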

Additional observations from a re-analysis of the deposited data

How the results depend on the processing

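No paired analysis was possible because the table holds 1 mean per stage, so replicates could not be left out either. The counts of called Rab genes moved by more than 1.5 times in these cases. For NF16 against NF10.5, 24 genes were called (13 lower), and 15 (7 lower) with a pseudocount of 5. For NF24 against NF16, 3 were called (3 higher, 0 lower). This became 11 (10 higher, 1 lower) with a pseudocount of 0.1, 8 (7 higher, 1 lower) with TPM, and 1 higher with a log2 threshold of 1.5, while median-of-ratios scaling and quantile normalization added 1 lower gene, rab29. No filter, a filter at 5 FPKM and the highest transcript alone stayed within 1.5 times for every count, and the 27 calls of NF24 against NF10.5 did so under all settings. The rab27b switch was found at floors of 5 and 20 FPKM and at 20 and 40 points. Of 783 differences of single named genes under the other settings, 28 lost and 19 gained a call, and no called difference turned direction. The filter settings and the log2 threshold of 1.5 reuse the same differences, and a changed pseudocount keeps their sign. Direction could therefore not turn under any of these settings. The filter settings, with 87 differences each, could also neither gain nor lose a call. Both limits hold for genes with 1 transcript under the highest transcript alone. Depth is unknown, so low values cannot be given a detection limit.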
